A study of Mus musculus with 18 samples.

Results

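The genes described are Cxcl9, Cxcl10 and Cxcl11, which encode the chemokines that bind the receptor CXCR3. They were chosen by name as the complete set of these ligands, and are 3 of the 20615 genes in the expression table. All 3 passed the filter on low counts, which left 15789 genes for testing.

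RNA was sequenced in bulk from bone marrow-derived macrophages (BMDMs) of C57BL/6 (B6) mice and of C57BL/6.NOD-Aec1Aec2 (SjSs) mice, a congenic line that carries the Aec1 and Aec2 intervals of the diabetic NOD mouse on the B6 background and develops disease of the exocrine glands like Sjögren's syndrome. The bone marrow came from female mice aged 7 to 12 weeks, and every sample was grown for 7 days in medium with L929 supernatant as the source of M-CSF. Each strain had 3 control samples without a stimulus, 3 samples given apoptotic cells (AC), and 3 samples given the TLR9 agonist CpG oligodeoxynucleotide at 1 µM for 6 h, so that the 18 samples form 6 groups of 3. The AC were thymocytes killed with dexamethasone, added at 5 per BMDM for 2 h, washed off and followed by a further 3 h of culture according to the labels, so AC and CpG also differ in timing. In the study's methods thymi were taken from both strains, and the sources used here do not state which strain supplied the AC of each sample. The study's figure captions give 3 mice per strain for the 3 conditions, so samples of different conditions may share a mouse, and p-values treat all samples as separate. The comparisons ask how macrophages of the disease-prone strain respond to dying cells, with CpG as another inflammatory stimulus.

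CXCL9, CXCL10 and CXCL11 are small CXC chemokines that draw activated T cells and natural killer cells, which carry CXCR3, to inflamed tissue. Their genes are classical targets of interferon. Interferon-gamma acts through gamma-activated sites in their promoters, and type I interferon through interferon-stimulated response elements. NF-kB, the factor that Toll-like receptors activate, takes part in their transcription in macrophages. In Sjögren's syndrome these chemokines are known from inflamed salivary glands.

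The genes lie side by side on mouse chromosome 5, all on the minus strand. In mm10 coordinates Cxcl9 spans chr5:92321347-92328079, Cxcl10 spans chr5:92346638-92348889 and Cxcl11 spans chr5:92359544-92365485. None of them is inside the Aec1 or Aec2 interval, which are on other chromosomes. The annotation (GENCODE M21) calls Cxcl9 and Cxcl10 protein coding and Cxcl11 a polymorphic pseudogene, because the B6 reference allele carries a frameshift. On that allele Cxcl11 reads measure a transcript that cannot make the full chemokine. The Cxcl11 allele of the SjSs cells was not examined, but the gene lies outside the NOD intervals of this line on the B6 background. The merged exons add up to 3016 bases for Cxcl9, 2252 for Cxcl10 and 3794 for Cxcl11, and levels of different genes are compared below per kb of exon only.

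The promoters of Cxcl9 and Cxcl10 are shown because both interferon and NF-kB act there. Each sequence is the 250 bases before the RefSeq start site in GRCm38.p6, minus strand, read 5′ to 3′. Cxcl9 is chr5:92328080-92328329 and Cxcl10 is chr5:92348890-92349139. Capitals mark every match, on either strand, to the interferon-stimulated response element GAAANNGAA, the gamma-activated site TTCNNNGAA, the NF-kB motif GGGANNTNC, the AP-1 motif TGANTCA or the TATA box TATAAA.
Cxcl9: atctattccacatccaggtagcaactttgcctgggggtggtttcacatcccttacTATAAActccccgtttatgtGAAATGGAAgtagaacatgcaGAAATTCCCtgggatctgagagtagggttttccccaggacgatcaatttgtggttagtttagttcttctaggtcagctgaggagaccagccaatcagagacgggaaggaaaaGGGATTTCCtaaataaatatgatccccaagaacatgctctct
Cxcl10: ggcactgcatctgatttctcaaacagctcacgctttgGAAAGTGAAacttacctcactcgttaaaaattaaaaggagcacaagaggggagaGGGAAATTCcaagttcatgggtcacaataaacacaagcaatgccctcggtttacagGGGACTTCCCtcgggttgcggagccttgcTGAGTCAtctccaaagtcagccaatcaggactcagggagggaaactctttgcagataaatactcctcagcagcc
In the Cxcl9 sequence the capitals are, in order, TATAAA at 195 to 190 bases upstream of the start, the response element GAAATGGAA at 175 to 167, an NF-kB match read on the other strand, GAAATTCCC, at 154 to 146, and the NF-kB match GGGATTTCC at 42 to 34. In the Cxcl10 sequence they are the response element GAAAGTGAA at 213 to 205, the NF-kB match GGGAAATTC at 159 to 151, a pair of overlapping NF-kB matches on opposite strands, GGGACTTCC at 103 to 95 and GGACTTCCC at 102 to 94, and the AP-1 match TGAGTCA at 74 to 68. Both windows thus hold 1 response element and NF-kB matches, and neither holds a match to the letters of the gamma-activated site. Among the same 250 bases of 32851 promoters of 27025 genes, 7.13% held the response element, 7.02% the gamma-activated site, 12.5% the NF-kB motif, 6.75% the AP-1 motif and 12.4% TATAAA. These matches are descriptions of letters, and no binding was measured. Cxcl11 has no entry among the promoters used.

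The table held between 30688335 and 57139661 estimated counts per sample (median 47912525), and levels are given as CPM, the usual scaling of counts to the library total. Macrophage markers (Csf1r, Adgre1, Itgam, Cd68, Lyz2, Mertk, Fcgr1) were all detected in every group, with a summed level of 14832 to 22807 CPM across the 18 samples. The summed level of 17 T cell and thymocyte markers, of which 5 passed the filter, was 15.2 to 19.3 CPM in AC SjSs samples and 10.8 to 12.7 CPM in control SjSs samples, and 5.36 to 6.46 CPM in AC B6 samples against 8.52 to 11.1 CPM in control B6 samples. Most of these counts were Cd4, which macrophages can also express. Of the 5 tested, Lck was called higher with AC in SjSs (2.11) and Tcf7 with AC in B6 (1.35), and Cd4 (1.97) and Lck (at the fold threshold) were called higher in AC SjSs than in AC B6. Of the untested, the receptor genes Cd3d, Cd3e, Cd3g and Trac had 4, 4, 14 and 7 counts in the AC SjSs group, and Themis had 0 there and 10 in AC B6. Among 5 measured dendritic cell markers the sum was 2.54 to 3.39 CPM in AC SjSs, the highest of the 6 groups, and 0.798 to 1.09 CPM in control SjSs samples. Of the 3 tested, only Xcr1 was called higher with AC or CpG, in both strains, and between the strains with AC. The median log2 fold change of these 3 between the strains with AC was 5.25e-05, and Itgae was called lower with CpG in SjSs. For stromal markers the sum was 149 to 233 CPM in SjSs samples and 41.2 to 137 CPM in B6 samples. The part of these other cells in the ligand levels was not tested, and in bulk RNA more cells of a type and more RNA per cell cannot be told apart.

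Cxcl10 was the most abundant of these transcripts per kb of exon in all 18 samples. Without a stimulus its level was 1.20, 1.04 and 1.51 CPM in the B6 samples and 2.60, 4.17 and 0.888 CPM in the SjSs samples. With AC it was 181, 188 and 204 CPM in B6 and 4625, 5142 and 4773 CPM in SjSs. With CpG it was 49.5, 58.3 and 55.7 CPM in B6 and 31.3, 20.9 and 23.7 CPM in SjSs. The control samples of the strains overlapped, whereas every AC sample of SjSs lay above every AC sample of B6 and every CpG sample of SjSs lay below every CpG sample of B6. From the lowest mean to the highest, the order was control B6 (1.25 ± 0.237 CPM, SD, n = 3), control SjSs (2.55 ± 1.64), CpG SjSs (25.3 ± 5.40), CpG B6 (54.5 ± 4.52), AC B6 (191 ± 12.0) and AC SjSs (4846 ± 266). The control groups were the only neighbours in this order whose samples overlapped.

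Cxcl9 was close to the limit of detection in resting cells. The B6 controls held 0, 0 and 1 count (0, 0 and 0.0178 CPM), and the SjSs controls held 17, 3 and 0 counts (0.313, 0.0887 and 0 CPM). A count of 0 in 1 library of this size sets a limit of 3 counts, which covers counting error only. With AC the levels were 0.218, 0.151 and 0.223 CPM in B6 and 32.8, 39.3 and 26.2 CPM in SjSs. With CpG they were 2.14, 0.905 and 1.22 CPM in B6 and 1.3, 0.642 and 1.14 CPM in SjSs, which overlapped. The order of the means was control B6 (0.00592 ± 0.0103 CPM), control SjSs (0.134 ± 0.161), AC B6 (0.198 ± 0.0400), CpG SjSs (1.03 ± 0.345), CpG B6 (1.42 ± 0.640) and AC SjSs (32.8 ± 6.53). Control SjSs overlapped both of its neighbours, and the CpG groups overlapped each other.

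Cxcl11 had no count in any of the 6 control samples. With AC the level was 0.437, 0.473 and 0.512 CPM in B6 (22, 25 and 23 counts) and 19.1, 21.1 and 16.5 CPM in SjSs (738, 1004 and 735 counts). With CpG there were only 2, 1 and 0 counts in B6 (0.0403, 0.0266 and 0 CPM) and 2, 1 and 2 counts in SjSs (0.0450, 0.0247 and 0.0457 CPM). The AC groups therefore stood apart from each other and from all other samples, and the CpG samples were at or just above 0. The means were 0.474 ± 0.0379 CPM in AC B6, 18.9 ± 2.32 in AC SjSs, 0.0223 ± 0.0205 in CpG B6 and 0.0384 ± 0.0119 in CpG SjSs (SD, n = 3).

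**Figure D1:**
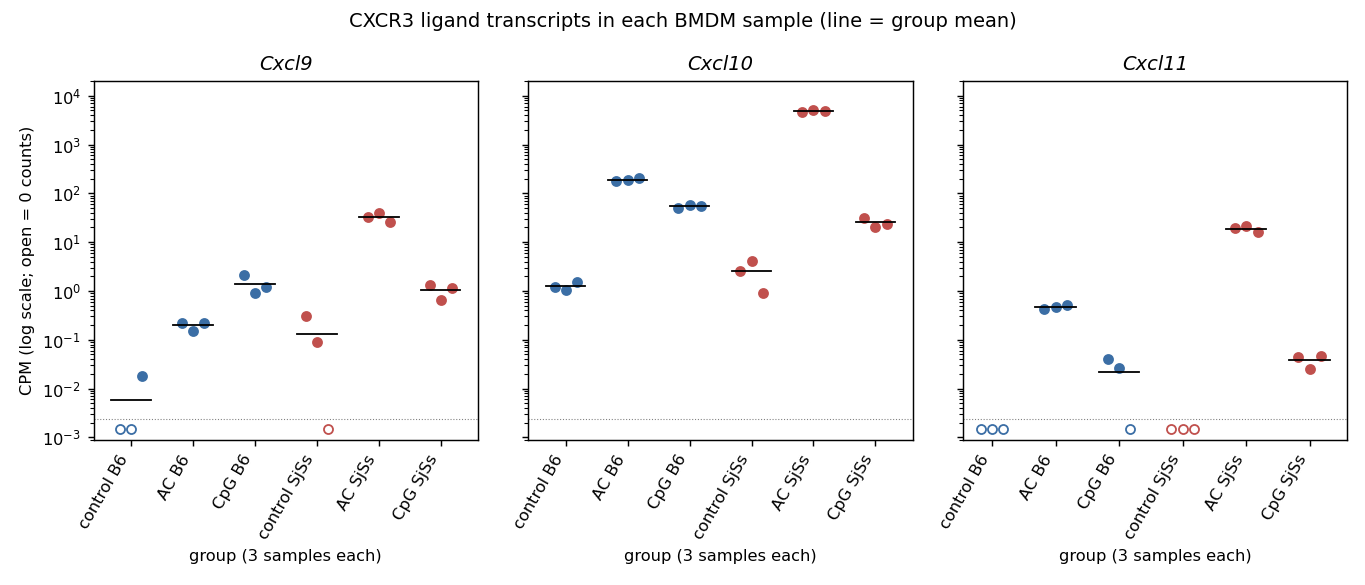
Levels of Cxcl9, Cxcl10 and Cxcl11 in each of the 18 samples, in CPM on a log axis, with B6 in blue, SjSs in red and a line at each group mean. Open points below the dotted line are samples with 0 counts. The AC SjSs samples are the highest for all 3 genes, Cxcl10 reaching 4625 to 5142 CPM, and in B6 the CpG samples are above the AC samples for Cxcl9 only.

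AC raised all 3 transcripts in both strains. A gene was called when its adjusted p in edgeR's quasi-likelihood test was under 0.05 and its absolute log2 fold change was over 1.3; 2.43% of tested genes were called higher with AC in B6 and 7.09% in SjSs. In B6, Cxcl10 rose by a log2 fold change of 7.24 (SE 0.29, adjusted p = 1.95e-12), and Cxcl9 by 4.52 (SE 1.34, adjusted p = 0.0117). The Cxcl9 estimate in B6 rests on 29 counts against 1, a ratio of 32.6 with a counting interval (exact, 95%) of 5.41 to 1333. In SjSs, Cxcl9 rose by 7.85 (SE 0.42, adjusted p = 6.77e-12) and Cxcl10 by 10.99 (SE 0.31, adjusted p = 1.18e-15), which are ratios of 236 (152 to 386) and 2105 (1890 to 2352). Cxcl11 was called in both strains (adjusted p = 2.70e-07 in B6 and 2.50e-13 in SjSs), and because its controls were at 0 its change is only bounded, at least 26.3-fold higher in B6 and at least 904-fold higher in SjSs, with 3 counts over the control group as the floor. The size of the Cxcl9 response depends on 1 control library in each strain: it was 6.22 in B6 without control B6 replicate 3 and 9.81 in SjSs without control SjSs replicate 1, over ranges of 4.02 to 6.22 and 7.17 to 9.81 when each sample was left out in turn, and it was called each time.

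CpG raised Cxcl9 and Cxcl10 in both strains, while Cxcl11 stayed at the edge of detection. In B6, where 5.86% of tested genes were called higher, Cxcl9 rose by 7.39 (SE 0.85, adjusted p = 3.97e-07; ratio 245, interval 43.5 to 9738, from 196 counts against 1) and Cxcl10 by 5.43 (SE 0.28, adjusted p = 4.85e-12; ratio 42.9). In SjSs, where 4.81% were called higher, Cxcl9 rose by 2.87 (SE 0.55, adjusted p = 2.11e-04; ratio 7.46, interval 4.64 to 12.6) and Cxcl10 by 3.41 (SE 0.27, adjusted p = 2.36e-09; ratio 11.0). Leaving out the same control libraries moved the Cxcl9 response most upward: it was 9.08 in B6 without control B6 replicate 3 and 4.83 in SjSs without control SjSs replicate 1 (ranges 6.88 to 9.08 and 2.20 to 4.83, called each time). Cxcl11 also passed the call in B6 (adjusted p = 0.0475) on 3 counts against 0, both at or under the floor, so no fold is given, and the call was lost in DESeq2 (adjusted p = 0.0885), without the filter on low counts (adjusted p = 0.0610), with the replicate number within strain as a block (adjusted p = 0.0557) and when any of 5 of the 6 samples was left out (adjusted p = 0.0225 to 0.203 over the 6). In SjSs the 5 counts against 0 were called (adjusted p = 0.0137) and correspond to at least a 1.85-fold rise, and this call was lost when only the compared groups were fitted (adjusted p = 0.0693).

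Set directly against each other, AC and CpG ordered the ligands differently in the 2 strains. In B6, where 3.64% of tested genes were called higher with AC than with CpG and 3.47% lower, Cxcl9 was lower with AC (log2 fold change -2.87, SE 0.48, adjusted p = 7.40e-05), that is 7.51-fold lower, with every AC sample below every CpG sample. Cxcl10 was higher with AC in the same cells by 1.81 (SE 0.21, adjusted p = 6.20e-07; 3.52-fold), and Cxcl11 by 4.24 (SE 0.45, adjusted p = 1.56e-06; 70 counts against 3, ratio 21, interval 6.89 to 104). The Cxcl11 value was 5.02 without CpG B6 replicate 1 and 3.67 without CpG B6 replicate 3. In SjSs, where 5.38% were called higher with AC, all 3 were higher with AC: Cxcl9 by 4.98 (SE 0.33, adjusted p = 2.61e-10; 31.6-fold), Cxcl10 by 7.58 (SE 0.26, adjusted p = 7.39e-14; 191-fold) and Cxcl11 by 8.83 (SE 0.27, adjusted p = 1.64e-12; ratio 487, interval 209 to 1503). The difference between the strains in this contrast was tested after Cxcl9 had been seen to go opposite ways. It was 7.85 for Cxcl9 (SE 0.56, adjusted p = 1.80e-09), 5.77 for Cxcl10 (SE 0.30, adjusted p = 3.53e-11) and 4.59 for Cxcl11 (SE 1.09, adjusted p = 0.00368), in a contrast where 5.17% of tested genes were called higher. For Cxcl11 it rests on the CpG B6 sample with 2 counts, since without that sample it was 3.81 with an adjusted p of 0.165.

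**Figure D2:**
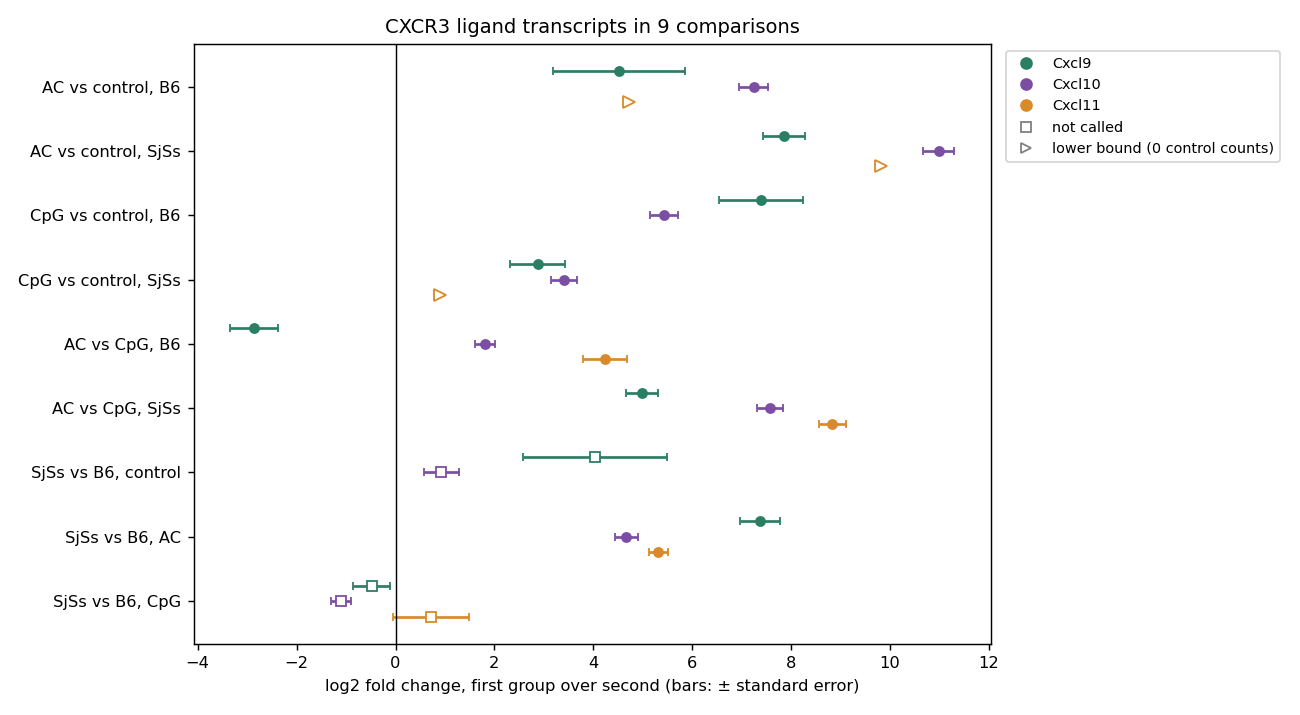
Fitted log2 fold changes of Cxcl9, Cxcl10 and Cxcl11 (horizontal axis, first group over second, bars ± SE derived from the test statistic) in 9 comparisons. Filled points were called, open squares were not called, and open triangles are lower bounds against controls with 0 counts; Cxcl11 has no point for CpG against control in B6 or between the control groups, where both groups were at or under the floor. Cxcl9 is at -2.87 for AC against CpG in B6 and at 4.98 in SjSs, and the strain difference changes from 4.67 with AC to -1.10 with CpG for Cxcl10.

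Between the strains, none of the 3 was called without a stimulus, where 2.01% of tested genes were called in either direction. Cxcl10 was 0.92 higher in SjSs (SE 0.35, adjusted p = 0.0723) and Cxcl9 was 4.04 higher (SE 1.46, adjusted p = 0.0598; 20 counts against 1, ratio 23.3, interval 3.72 to 965), with overlapping samples for both. Both values depend on single control libraries. Without control SjSs replicate 3, the lowest of its group for both genes, the difference was called, at 1.38 for Cxcl10 (adjusted p = 7.31e-04) and at 4.71 for Cxcl9 (adjusted p = 0.0146). Without control SjSs replicate 1, which holds 17 of the 20 Cxcl9 counts, the Cxcl9 difference was 2.08 (adjusted p = 0.493), and without control B6 replicate 3, which holds the only B6 count, it was 5.73 (adjusted p = 0.0820). DESeq2 also called Cxcl9 (4.40, adjusted p = 0.00902).

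With AC all 3 were higher in SjSs, where 6.24% of tested genes were called higher. The difference was 7.37 for Cxcl9 (SE 0.40, adjusted p = 1.98e-11), 4.67 for Cxcl10 (SE 0.23, adjusted p = 4.62e-12) and 5.31 for Cxcl11 (SE 0.19, adjusted p = 6.98e-12). As ratios these are 168 (117 to 251), 25.5 (25.2 to 25.8) and 40.1 (31.6 to 51.5). With CpG none of the 3 was called between the strains, against 2.61% of tested genes in either direction. Cxcl10 was nevertheless 2.12-fold lower in SjSs (log2 fold change -1.10, SE 0.21), with an adjusted p of 9.20e-04 that passed and a fold change that did not; 9.57% of tested genes were lower at that adjusted p threshold with any fold. The strain difference with CpG was -0.48 for Cxcl9 (SE 0.37, adjusted p = 0.405; ratio 0.707, interval 0.564 to 0.886), and the Cxcl11 ratio of 1.72 came from 5 counts against 3 (interval 0.335 to 11.1). The strain order of Cxcl10 thus turned round between AC and CpG, with no overlap of the samples in either.

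The response to AC differed between the strains for Cxcl10, by 3.74 (SE 0.43, adjusted p = 1.20e-06), in a contrast where 4.76% of tested genes were called higher. The response to CpG differed the other way, by -2.03 (SE 0.41, adjusted p = 0.00550), where 0.329% of tested genes were called lower. For Cxcl9 neither was called (AC, 3.33, SE 3.94, adjusted p = 0.556; CpG, -4.52, SE 1.49, adjusted p = 0.0848), the B6 controls holding 1 count. Leaving out each sample in turn gave 1.64 (without control B6 replicate 3) to 5.29 (without control SjSs replicate 1) for AC and -6.21 to -2.56, with the same 2 samples at the ends, for CpG. The CpG value for Cxcl9 was called without control SjSs replicate 3 (-5.19, adjusted p = 0.0231) and in DESeq2 (-4.89, adjusted p = 0.0144). For Cxcl11, with both control groups at 0, the fit gave no usable estimate of either. The SE of 3.94 for Cxcl9 is derived from the test statistic. At such low counts it does not match the SE of the separate AC responses (1.34 in B6 and 0.42 in SjSs).

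The make-up of the ligand pool was described as the share of each transcript in the length-scaled sum of the 3. Cxcl10 made up 96.7% to 99.8% of the pool as a group mean. The Cxcl9 share was spread most widely in control SjSs, at 8.26%, 1.56% and 0%, which had the highest group mean (3.27%, from 20 counts), and it was 0%, 0% and 0.871% in control B6. Under CpG it was 3.12%, 1.15% and 1.61% in B6 and 3.01%, 2.24% and 3.47% in SjSs. Under AC its share was 0.0901%, 0.0600% and 0.0813% in B6 and 0.526%, 0.565% and 0.407% in SjSs. Cxcl11 held 0.143%, 0.149% and 0.149% of the pool in AC B6 and 0.243%, 0.242% and 0.204% in AC SjSs, so it exceeded Cxcl9 in every AC B6 sample and was below it in every AC SjSs sample. A comparison of 3 samples with 3 cannot give an exact permutation p under 0.1, and of 8 log2 ratios to Cxcl10 only 3 had more than 10 counts of both genes in every sample. Cxcl9 to Cxcl10 was lower with AC than with CpG in SjSs (log2 difference -2.56, SE 0.24, two-sided exact permutation p = 0.1, adjusted over the 3 tests 0.15). Under CpG it was 0.69 higher in SjSs than in B6 (SE 0.47, exact permutation p = 0.3, adjusted 0.3), a value that ran from 0.36 without CpG B6 replicate 2 to 1.10 without CpG B6 replicate 1. Under AC the ratio of Cxcl11 to Cxcl10 was 0.65 higher in SjSs than in B6 (SE 0.086, exact permutation p = 0.1, adjusted 0.15). Per kb of exon, the AC SjSs group held 2152 ± 118 CPM of Cxcl10, 10.9 ± 2.16 of Cxcl9 and 4.98 ± 0.611 of Cxcl11 (SD, n = 3).

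**Figure D3:**
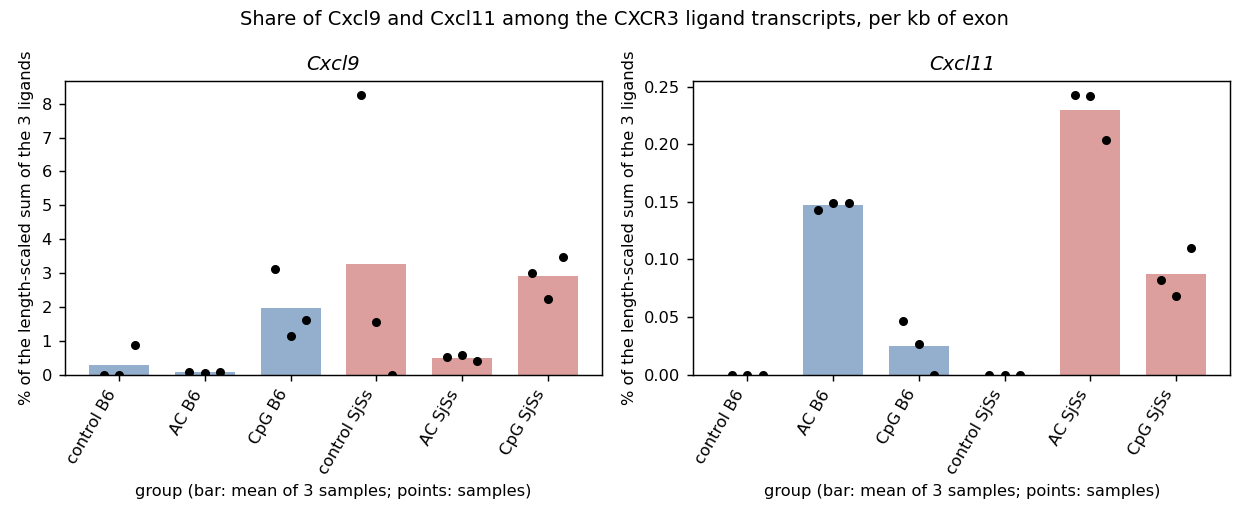
Share of Cxcl9 (left) and Cxcl11 (right) in the summed level of the 3 ligand transcripts per kb of exon, in percent, for the 6 groups (bars, mean of 3 samples; points, samples; the axes differ in range). Cxcl9 is at 0% to 8.26% in the control SjSs samples, at 1.15% to 3.47% in CpG samples and at or under 0.565% in AC samples, while Cxcl11 is highest with AC.

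Of 5 genes listed as receptors and modifiers of the CXCR3 ligands, 4 were in the table and 3 were tested. Cxcr3, the receptor itself, was at 6.93 ± 0.270 CPM in control B6 and 8.10 ± 2.20 in control SjSs. Every AC and every CpG sample was below every control of its strain, with ratios to control of 0.408 (AC B6), 0.343 (AC SjSs), 0.217 (CpG B6) and 0.397 (CpG SjSs). Cxcr3 fell by 1.50 with AC in SjSs (SE 0.15, adjusted p = 8.63e-08), where 5.83% of tested genes were called lower, and by 2.21 with CpG in B6 (SE 0.16, adjusted p = 9.52e-10), where 6.88% were. For AC in B6 (adjusted p = 1.93e-06) and CpG in SjSs (adjusted p = 6.70e-07) the log2 fold change was -1.29, just short of the fold threshold. Dpp4, a protease that trims these chemokines, had 8 counts in AC B6 and 37 in AC SjSs (log2 fold change 2.34, SE 0.69, adjusted p = 0.00893; ratio 5.23, interval 2.40 to 13.0). Pf4, a platelet chemokine that can also bind CXCR3, was at 687 to 1111 CPM as a group mean and was not called in any comparison. Ackr3, a scavenging receptor for CXCL11, had 1 to 24 counts per group and did not pass the filter, and Ackr1 was not analysed here.

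Among interferon genes, which act upstream of the ligands, Ifnb1 was the only tested member of 18 listed; Ifnz did not pass the filter, and the other 16, Ifng among them, were not analysed here. Interferon-beta transcripts numbered 0, 0 and 5 counts in control B6, 5, 16 and 5 in AC B6 and 1, 2 and 5 in CpG B6. In SjSs there were 7, 6 and 2 counts in the controls, 219, 259 and 216 with AC and 7, 5 and 2 with CpG, so only the AC SjSs samples stood clear of the rest. Ifnb1 rose with AC by 2.44 in B6 (SE 0.82, adjusted p = 0.0250) and by 5.61 in SjSs (SE 0.52, adjusted p = 2.33e-08). Under AC it was 4.91 higher in SjSs than in B6 (SE 0.48, adjusted p = 9.69e-08; ratio 30.2, interval 20.4 to 46.6). The difference between the strains in the AC response was 3.17 and was not called (SE 1.3, adjusted p = 0.0640). The CpG responses of Ifnb1 were 0.94 in B6 (adjusted p = 0.455) and 0.03 in SjSs (adjusted p = 0.977), neither called. As ratios these were 2.00 (interval 0.578 to 7.78) and 1.04 (0.465 to 2.31), from few counts at a single time. The part of interferon-beta in the ligand levels was not tested.

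Of 13 listed STAT, IRF and NF-kB factors, which carry the interferon and Toll-like receptor signals to these promoters, 2 were called higher with AC in B6 and 8 in SjSs, and none lower. The list median was 0.81 in B6 and 1.63 in SjSs, and the median of all tested genes was between -0.05 and 0.03 in every comparison. Irf1, an interferon-induced activator, gave the largest of these differences. Its level was 126, 131 and 126 CPM in AC B6 and 1373, 1453 and 1285 CPM in AC SjSs, against 68.8 to 90.4 CPM in all 6 controls. The AC response was 4.12 in SjSs (SE 0.11, adjusted p = 6.78e-16), while the value in B6 was 0.81 (SE 0.10), under the fold threshold. Stat2 rose by 2.78 with AC in SjSs (SE 0.14, adjusted p = 3.31e-12) and Irf9 by 1.39, and the NF-kB genes Nfkb1, Nfkb2, Relb and Rel by 2.50, 2.80, 2.35 and 1.63. Irf7, the interferon-induced factor for type I interferon genes, rose in both strains, by 2.57 in B6 and 2.81 in SjSs, with a strain difference in response of 0.24 (SE 0.26). Nfkb2 was the other gene called in B6, at 1.71.

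For 5 of the 13 the AC response was called larger in SjSs: Irf1 by 3.31, Stat2 by 1.77, Rel by 1.45, Irf2 by 1.39 and Nfkb1 by 1.34. With CpG, 5 of the 13 rose in B6 (Stat2, Irf7, Nfkb1, Nfkb2, Relb) and 3 in SjSs (Nfkb1, Nfkb2, Relb), and none was called between the strains. The CpG value of Irf1 was 0.35 in B6 and 0.11 in SjSs, neither called.

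**Figure D4:**
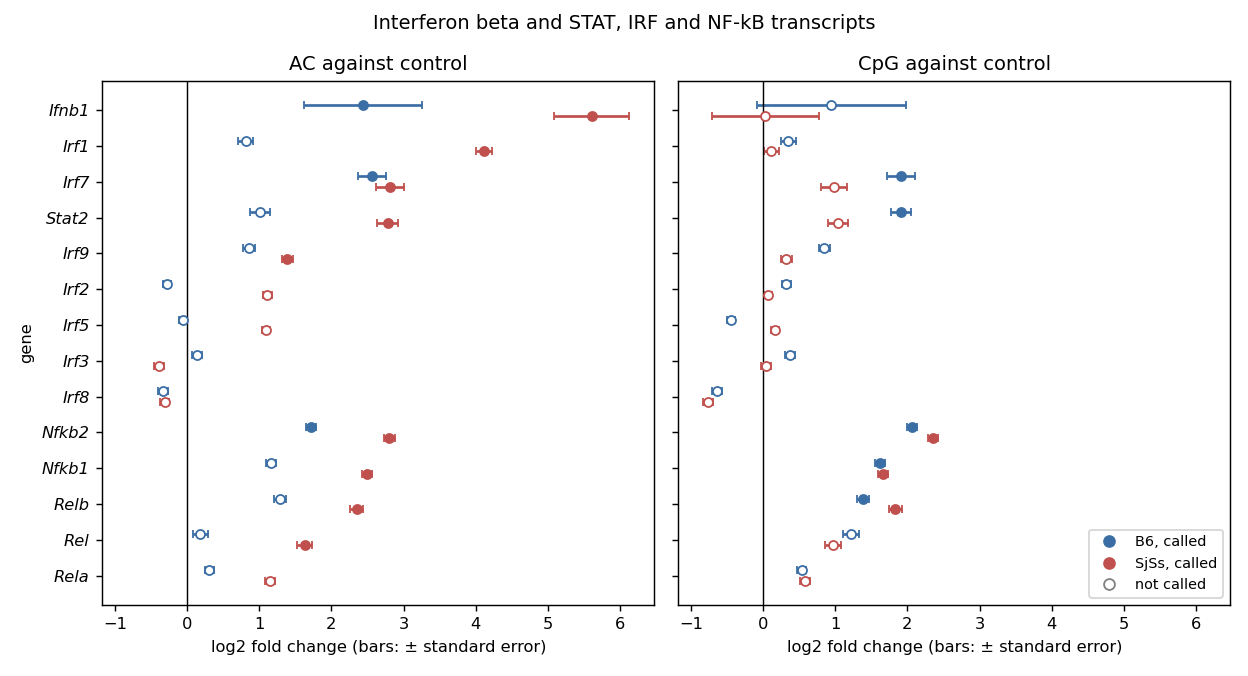
Log2 fold changes of Ifnb1 and of 13 STAT, IRF and NF-kB factors with AC (left) and with CpG (right) against control. B6 is in blue and SjSs in red, bars are ± SE derived from the test statistic, and open points were not called. With AC, Ifnb1 is at 5.61 and Irf1 at 4.12 in SjSs against 2.44 and 0.81 in B6; with CpG the NF-kB genes Nfkb1, Nfkb2 and Relb were called in both strains and Ifnb1 and Irf1 in neither.

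Of 7 receptors and kinases of the interferon pathway (Ifnar1, Ifnar2, Ifngr1, Ifngr2, Jak1, Jak2, Tyk2), only Jak2, a kinase of the interferon-gamma receptor, was called, rising by 2.50 with AC in SjSs (SE 0.10, adjusted p = 6.06e-14) and with a response 1.67 larger than in B6. Below the fold threshold, Ifngr1 was at 144 to 172 CPM in all 12 treated samples against 221 to 248 CPM in the 6 controls, and Ifngr2 was at 214 to 270 CPM in the CpG samples against 135 to 173 CPM in the controls. Feedback inhibitors rose more widely: of 11, 5 were called higher with AC in B6, 8 in SjSs, 8 with CpG in B6 and 6 with CpG in SjSs. Socs1, which blocks JAK kinases, rose by 1.95 with AC in B6 and by 7.31 in SjSs, from 2.01 ± 0.523 to 313 ± 19.1 CPM, and its response was 5.35 larger in SjSs (SE 0.25, adjusted p = 1.27e-11). Socs3 rose by 5.05 with AC in SjSs and 1.63 in B6 but by 5.82 and 5.87 with CpG in B6 and SjSs. Usp18, an inhibitor of type I interferon signalling, was the list's only gene called higher in control SjSs (1.54, SE 0.23, adjusted p = 1.01e-04). Its CpG response was smaller in SjSs (interaction -2.07, SE 0.30, adjusted p = 3.84e-04), as for Cxcl10. Unlike those of Cxcl10, its CpG samples overlapped between the strains, at 70.4 to 120 CPM in B6 and 40.5 to 85.2 CPM in SjSs.

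Chemokine transcripts are also set by mRNA decay, so 9 regulators of stability were listed. With AC in B6 none of the 9 was called, where 2.43% of tested genes were called higher. Zc3h12a, a nuclease that degrades such mRNAs, rose with CpG by 1.98 in B6 and 2.16 in SjSs. In SjSs, Arid5a, which stabilises inflammatory mRNAs, rose by 3.56 with AC, from 11.2 ± 1.41 to 132 ± 7.46 CPM, and Zfp36, which speeds their decay, rose by 1.79. Zfp36 was also called higher with CpG in B6, at 264 to 296 CPM against 95.8 to 122 CPM in control B6. Zfp36l1, a relative of Zfp36, fell with AC in SjSs (-2.28), with CpG in B6 (-2.52) and with CpG in SjSs (-2.38), where 4.45% of tested genes were called lower. Its AC response was lower in SjSs than in B6 (interaction -1.36, SE 0.12, adjusted p = 3.51e-08), in a contrast where 2.76% of tested genes were called lower.

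Of 11 other CXC chemokines listed, 9 were in the table and tested. With AC, Cxcl1, Cxcl2 and Cxcl5 were called higher in SjSs than in B6 (1.77, 1.49 and 1.67), against 7.37, 4.67 and 5.31 for the CXCR3 ligands. The neutrophil attractants Cxcl1, Cxcl2, Cxcl3 and Cxcl5 were called higher with AC and with CpG in both strains. In B6 these 4 and Cxcl13, a B cell attractant, were lower with AC than with CpG (for example Cxcl1 at -2.64, Cxcl2 at -2.76 and Cxcl13 at -3.90), the direction of Cxcl9. Cxcl13 was low and uneven between libraries, with 215, 45 and 44 counts in CpG B6 and 13, 1 and 7 in AC B6. In SjSs none of the 9 was called between AC and CpG, where Cxcl9, Cxcl10 and Cxcl11 all were. Cxcl13 was the only one of the 9 called lower in SjSs with CpG (-3.25), where 0.792% of tested genes were. It had 5, 12 and 12 counts in CpG SjSs.

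Among 14 antiviral genes induced by type I interferon, 12 rose with AC in B6, 14 with AC in SjSs, 14 with CpG in B6 and 10 with CpG in SjSs. With AC, 12 were higher in SjSs than in B6. The AC response was larger in SjSs for 10, led by Cmpk2 (3.97), Ifit2 (3.55), Rsad2 (3.47) and Mx1 (3.15). The CpG response was smaller in SjSs for 7 (Ifit1, Ifit3, Mx2, Rsad2, Oasl1, Usp18 and Cmpk2), the pair of interaction directions of Cxcl10. With CpG none of the 14 was called between the strains, with a list median of -0.34. Between the controls the list median was 1.05, higher in SjSs. Oasl1 and Usp18 were the 2 called higher in control SjSs. In B6 only Oasl1 was called between AC and CpG (1.63 higher with AC), and in SjSs 11 of 14 were higher with AC.

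Among 19 tested genes induced by interferon-gamma, of 20 listed, 9 rose with AC in B6 and 19 in SjSs, and 16 and 12 rose with CpG. The AC response was larger in SjSs for all 19 tested, led by Nos2 (6.44), Tgtp1 (5.76), Socs1 (5.35) and Gbp4 (5.05). As for Cxcl9, some were lower with AC than with CpG in B6 (Gbp2, Gbp3, Gbp6, Gbp7, Cd274 and Nos2, 6 of 19), and 19 of 19 were higher with AC in SjSs. Only Tgtp2 had a CpG response called smaller in SjSs (-1.37).

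Other signals that recruit or instruct type 1 lymphocytes, the cells that carry CXCR3, leaned further to CpG in B6. Of 9, 5 rose with AC in B6 and 8 in SjSs, and 8 rose with CpG in each strain. In B6, 8 of 9 were lower with AC than with CpG, and in SjSs 4 were higher and Il12a was lower (-1.63), where 3.80% of tested genes were called lower. Il12b, a subunit of interleukin-12, was at 99.5 ± 2.01 CPM in CpG B6, 25.0 ± 4.60 in CpG SjSs, 15.8 ± 1.96 in AC SjSs and 0.867 ± 0.372 in AC B6. With CpG it was lower in SjSs (log2 fold change -1.99, SE 0.14, adjusted p = 1.49e-08), as were Il12a (-1.43) and Il27 (-1.40). Il15, a growth factor for natural killer and memory T cells, was called with AC in SjSs alone of the 4 responses (3.91, SE 0.16, adjusted p = 1.15e-13).

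Of 13 nucleic acid sensors and adaptors, which start interferon and NF-kB signalling, 1 rose with AC in B6 (Ifih1) and 6 in SjSs. Those 6 (Ifih1, Tlr3, Ddx58, Mb21d1, Tlr9 and Myd88) also had a larger AC response in SjSs, Ifih1 by 3.34, Tlr3 by 2.62, Ddx58 by 2.29 and Mb21d1 by 2.02. Tlr9, the receptor for CpG, fell with CpG in B6 (-1.85), and its CpG value in SjSs was -0.88 and not called. Usp18, Irf7, Irf1 and Socs1 each stand in 2 of the lists above.

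The genes whose group means were most like each ligand differed between the 3. Likeness was the root mean square difference of centred log2 CPM over the 6 groups, so all of these patterns share the same libraries. The log2 CPM used a prior count of 2, which shrinks differences of genes near 0 counts. For Cxcl9 the 5 nearest were Nos2 (0.77), Serpina3g (0.79), Ifit2 (0.82), Gbp5 (0.86) and Iigp1 (0.89). For Cxcl10 they were Cmpk2 (1.18), Rsad2 (1.19), Ifit1bl1 (1.28), Ifit1 (1.29) and Oasl1 (1.34), and for Cxcl11 Gm4841 (0.80), Ifit1bl1 (0.84), Dll1 (1.06), BC023105 (1.12) and Klrk1 (1.13). Gm4841, Dll1, BC023105 and Klrk1 were low even in AC SjSs, at means of 5.96 to 6.82 CPM. The part of the level of a gene in these ranks was not tested. Cxcl10 ranked at 140 and Cxcl11 at 150 in likeness to Cxcl9. In likeness to Cxcl10, Cxcl11 ranked at 13 and Cxcl9 at 22, and in likeness to Cxcl11, Cxcl10 ranked at 36 and Cxcl9 at 66. The differences themselves were close, at 1.93 for Cxcl9 and Cxcl10, 1.94 for Cxcl9 and Cxcl11, and 1.69 for Cxcl10 and Cxcl11. Nos2, the inducible nitric oxide synthase, had the crossing of Cxcl9: 0.515 ± 0.155 CPM with AC and 5.95 ± 2.42 with CpG in B6, and 51.2 ± 4.76 with AC and 2.23 ± 0.999 with CpG in SjSs. Since Nos2 was picked for this likeness, its crossing is a description.

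Around the ligand genes, 20 other genes of the table lay within 500000 bases of a member, and 15 were tested. Only Art3, an ADP-ribosyltransferase gene, was called higher with AC in SjSs or between the strains with AC. This 1 of 15 is close to the shares of all tested genes called higher, 7.09% and 6.24%. Art3 runs along the plus strand over chr5:92331827-92414628 and so covers Cxcl10 and Cxcl11, which are read from the other strand. It had 0 counts in the 3 SjSs controls, 21, 19 and 41 with AC and 0, 0 and 1 with CpG, and in B6 it had 4, 0 and 0, then 0, 2 and 8, then 0, 1 and 0. The rise with AC in SjSs was at least 29.6-fold, and under AC the strains differed by a ratio of 9.17 (interval 4.74 to 19.8; log2 fold change 3.12, SE 0.81, adjusted p = 0.00428). Whether the counting used strand is not given in the sources used here, so reads of Art3 and of the ligand genes inside it cannot be told apart where they overlap. In AC SjSs the group counts were 81 for Art3, 2477 for Cxcl11 and 636357 for Cxcl10. Nearby genes that do not overlap a ligand gene had smaller AC values in SjSs, none of them called: Naaa 1.26, Sdad1 0.77 and Nup54 0.78. With CpG in B6, Thap6 (-2.11) and Scarb2 (-1.36) were called lower, where 6.88% of tested genes were. No neighbour was called with CpG in SjSs, where 4.81% of tested genes were called higher and 4.45% lower.

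**Figure D5:**
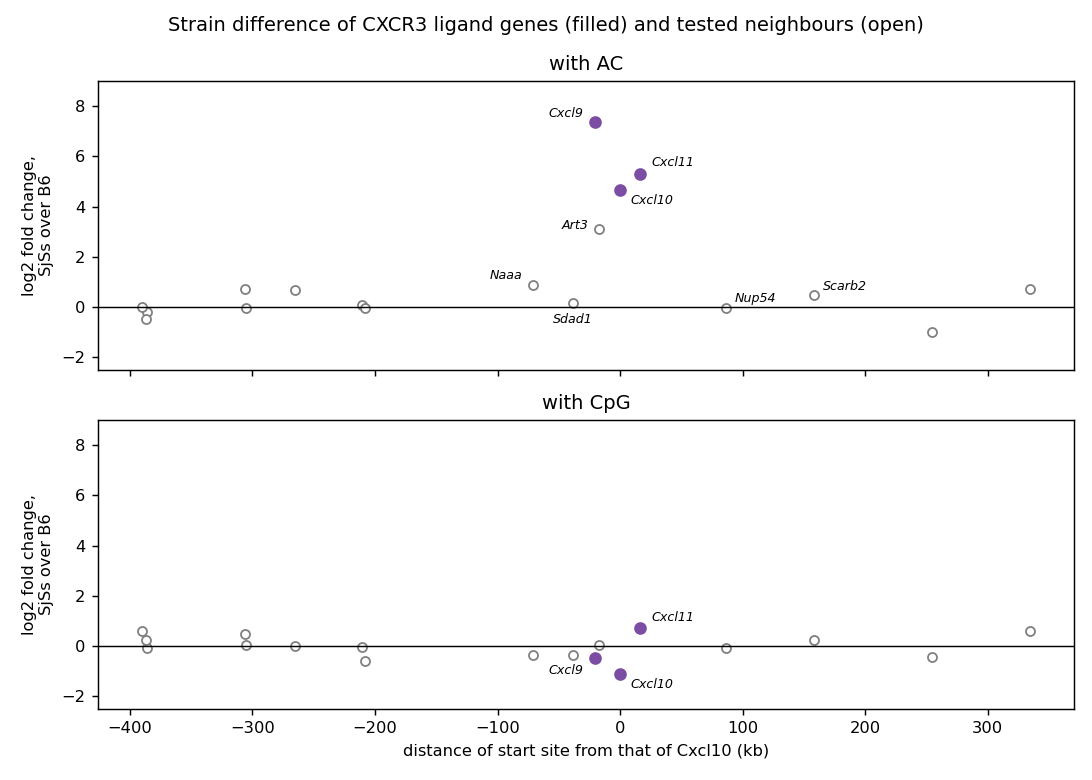
Strain difference (log2 fold change, SjSs over B6) with AC (top) and with CpG (bottom) for the ligand genes (filled) and 15 tested neighbours (open), by distance of the start site from that of Cxcl10 in kb. With AC the ligand genes are at 4.67 to 7.37 and Art3, which overlaps Cxcl10 and Cxcl11 on the opposite strand, at 3.12. With CpG none of the points was called, against 2.61% of tested genes in either direction.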

How the data were processed

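Sequencing was of bulk RNA from 18 BMDM samples. The authors aligned reads to mm10 with STAR in Partek and deposited 1 table of estimated counts per gene from an expectation maximisation step. Per the labels' processing notes they tested with DESeq2 (listed version 3.13). Of the deposited values, 41.1% were not whole (tolerance 1e-06), and all were rounded. All columns were mapped to samples (0 unused). filterByExpr, TMM scaling and edgeR 4.0.16 quasi-likelihood tests (R 4.3.3, limma 3.58.1) were run on all 18 samples with 1 mean per group (12 residual degrees of freedom), with Benjamini-Hochberg adjustment over 15789 genes and calls at adjusted p under 0.05 and absolute log2 fold change over 1.3. The planned comparisons numbered 11, and 1 was added after the values were seen. Fitted fold changes used a prior count of 0.125. Their SE is the absolute log2 fold change divided by the square root of the test's F statistic. It is not a standard error from the fit, and it is unreliable near 0 counts. CPM is scaled to the sample total multiplied by its TMM factor. Ratios, from summed counts and summed totals scaled in the same way, have exact conditional binomial 95% intervals. These intervals and the floor of 3 counts cover counting error only, since reads are not independent molecules. Scripts were tested on simulated data.

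Alternatives were DESeq2 1.42.0 and its size factors, other filters, prior count 2, a log2 fold threshold of 1, unrounded counts, fewer groups, replicate blocks and leaving out each sample. Replicates are separate samples by the labels. The study cultured cells of 3 mice per strain, so samples of different treatments may share a mouse, which the fit does not model, and the sources do not say whether equal numbers mark 1 mouse. The named genes are the 3 ligands, all members of the receptor, interferon and transcription factor lists, the 4 largest interactions of strain and AC or list calls of 3 or fewer in other lists, table neighbours within 500000 bases and the 5 most alike genes; other names complete short counts and were chosen after their values were seen. The members and lists were chosen with earlier results of these data known, and 2 listed genes are not reported here. Gene models are GENCODE M21; the deposited end coordinate is 1 above its end for 88.3% of matched genes and was printed less 1. Promoters are RefSeq (GRCm38.p6), matched for 2 of the 3 genes. The study gives 3 h (labels) and a longer time (methods) after the wash.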

Additional observations from a re-analysis of the deposited data

Results flagged for a closer look

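Each of these results was singled out because an effect differed between the strains by its own interaction test in edgeR. The AC response of Cxcl10 was larger in SjSs by 3.74 on the log2 scale (adjusted p = 1.20e-06), with the 3 AC SjSs samples at 4625 to 5142 CPM and the 3 AC B6 samples at 181 to 204 CPM. The CpG response of Cxcl10 was smaller in SjSs, with an interaction of -2.03 (adjusted p = 0.00550), and the 3 CpG SjSs samples, at 20.9 to 31.3 CPM, were below the 3 CpG B6 samples, at 49.5 to 58.3 CPM. Both shared the same controls, where SjSs replicate 3 had the lowest Cxcl10 of its group (0.888 CPM); leaving out samples 1 at a time gave 3.29 to 4.20 for AC and -2.48 to -1.57 for CpG. The contrast of AC with CpG, which uses no control sample, differed between the strains by 7.85 for Cxcl9 (adjusted p = 1.80e-09), 5.77 for Cxcl10 (adjusted p = 3.53e-11) and 4.59 for Cxcl11 (adjusted p = 0.00368), and this test was added after the values were seen. The Cxcl11 value rests on 8 CpG counts in all and was 3.81 (adjusted p = 0.165) without CpG B6 replicate 1.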

How the results depend on the processing

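Across 756 recomputed values, 729 kept their direction and their side of the threshold or stayed within 1.5 times of a count, 8 were called only under the alternative, 13 lost a call, 6 counts moved further and 0 reversed. A log2 fold threshold of 1 called 1106 genes in place of 705 with AC in B6, 2267 in place of 1462 with CpG in SjSs, 498 in place of 318 between controls, 656 in place of 412 between strains with CpG, 167 in place of 97 for the interaction with CpG and 1774 in place of 1123 for AC against CpG in B6, and it called Cxcl10 lower in SjSs with CpG (-1.10). The CpG response of Cxcl11 in B6 was not called without the filter (3.24), with a prior count of 2 (0.62), with only the compared groups (3.32), with the replicate number within strain as a block (3.25) or in DESeq2 (2.79), and in SjSs not with a prior count of 2 (0.94) or only the compared groups (3.91). DESeq2 called Cxcl9 between controls (4.40) and in the interaction with CpG (-4.89), and both were also called without control SjSs replicate 3. Called only in DESeq2 was Cxcl11 in the interaction with AC (5.10), where both controls are at 0. Leaving out samples 1 at a time gave 2.46 to 3.82 for Cxcl11 with CpG in B6, 3.81 to 5.18 for its strain difference in AC against CpG, 2.08 to 5.73 for Cxcl9 and 0.47 to 1.38 for Cxcl10 between controls, and -6.21 to -2.56 for Cxcl9 in the interaction with CpG; apart from the settings and samples named in the results, the cause was not tested. Samples with the same number and strain deviated together weakly (correlation 0.02 to 0.264, median 0.0905, 9 of 18 pairs over 0.1). Other numbers of the same strain were at -0.252 to 0.074 (median -0.052). Samples with the same number in the other strain did not deviate together (-0.094 to 0.06). A sample correlated best with its own number in 32 of 36 comparisons within its strain. The sources do not state whether equal numbers within a strain mark 1 mouse. The main fit did not take them as pairs, so its p-values within a strain leave out any such pairing. The replicate block across strains called Cxcl9 between controls (4.02, adjusted p = 0.0491) and changed no other call of a ligand. Depth limits Cxcl11 under CpG and both Cxcl9 and Cxcl11 in controls, which held 0 to 20 counts per group.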
